A study of Mus musculus with 15 samples.

Results

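The genes described here are the solute carriers, the membrane proteins whose mouse symbols begin with Slc and a number, as measured by RNA-seq in microglia derived from mouse embryonic stem cells. They were taken by symbol from the annotated expression table, leaving out Slc7a11, Slc2a1, Slc16a1, Slc16a3, Slc40a1, Slc11a1 and Slc11a2. The symbol pattern uses no expression value, but members and comparison lists were chosen with earlier results of these data known. The pattern matched 193 symbols, 6 of the 7 symbols to be left out were among them, and 187 members remained of 11201 genes. All 187 members passed the filter on low values. The cells were ESdM of C57BL/6-ATCC origin kept in N2 medium, and each stimulus was applied for 24 h. In 3 libraries the cells had received LPS (500 ng/ml) with IFNg (20 ng/ml), in 3 IL4 (100 U/ml), in 3 TGFb (50 ng/ml), and in 6 no stimulus. The labels describe the stimuli as driving the cells into different activation states, so the comparison of each stimulus with untreated cells asks which carriers change with that state. Nothing in the labels says that libraries of 1 group came from separate cultures, so p-values measure only the spread between these libraries.

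Solute carriers move sugars, amino acids, ions, metals, nucleotides, vitamins and organic acids across the plasma membrane and the membranes of organelles, without splitting ATP themselves. Families are numbered by sequence relatedness, and a family often shares a substrate: Slc2 for hexoses, Slc7 with the heavy chain Slc3a2 for amino acids, Slc30 and Slc39 for zinc, Slc25 for the inner mitochondrial membrane, Slc35 for nucleotide sugars of the Golgi. In macrophages and microglia, carriers supply arginine, glutamine and glucose to activated cells and empty the lysosome of digested material. The members were divided into 9 classes by the main substrate of their family or, for some members, of the single gene. The largest were mitochondrial carriers (38), amino acids and peptides (31), nucleosides and nucleotide sugars (25), metals (23), and inorganic ions and pH (22). Then came organic anions, cations and monocarboxylates (19), vitamins, choline and lipids (14), and sugars and polyols (11). The last class held 4 genes named after a carrier that are not carrier genes.

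RefSeq lists a promoter window, 250 bases before to 50 bases after a transcript start in GRCm38.p6, for 144 of the 187 members. Windows of 6 members that moved far with a stimulus are printed as examples of the DNA at these starts. They belong to Slc2a6 (chr2:27027949-27028248, minus strand), Slc31a2 (chr4:62286179-62286478, plus strand), Slc6a12 (chr6:121342324-121342623, plus strand, 1 of its 5 listed starts), Slc10a6 (chr5:103629354-103629653, minus strand), Slc37a2 (chr9:37255689-37255988, minus strand) and Slc1a4 (chr11:20332664-20332963, minus strand). All are written 5′ to 3′ on the gene's strand, and capitals mark a motif match.
Slc2a6: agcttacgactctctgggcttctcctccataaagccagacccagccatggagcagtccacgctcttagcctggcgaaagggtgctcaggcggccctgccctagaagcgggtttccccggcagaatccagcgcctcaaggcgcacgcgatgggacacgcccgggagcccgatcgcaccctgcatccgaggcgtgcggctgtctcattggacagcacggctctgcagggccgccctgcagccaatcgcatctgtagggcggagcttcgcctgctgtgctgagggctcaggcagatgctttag
Slc31a2: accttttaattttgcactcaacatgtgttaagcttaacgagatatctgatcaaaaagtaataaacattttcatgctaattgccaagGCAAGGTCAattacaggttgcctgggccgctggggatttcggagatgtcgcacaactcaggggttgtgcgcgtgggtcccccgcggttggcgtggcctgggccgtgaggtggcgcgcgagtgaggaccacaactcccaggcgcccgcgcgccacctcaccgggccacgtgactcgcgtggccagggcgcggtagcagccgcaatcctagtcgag
Slc6a12: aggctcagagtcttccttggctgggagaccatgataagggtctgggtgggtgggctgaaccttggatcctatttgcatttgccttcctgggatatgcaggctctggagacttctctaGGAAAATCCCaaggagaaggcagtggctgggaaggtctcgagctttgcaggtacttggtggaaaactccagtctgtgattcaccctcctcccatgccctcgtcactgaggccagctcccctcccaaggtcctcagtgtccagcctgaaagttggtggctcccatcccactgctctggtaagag
Slc10a6: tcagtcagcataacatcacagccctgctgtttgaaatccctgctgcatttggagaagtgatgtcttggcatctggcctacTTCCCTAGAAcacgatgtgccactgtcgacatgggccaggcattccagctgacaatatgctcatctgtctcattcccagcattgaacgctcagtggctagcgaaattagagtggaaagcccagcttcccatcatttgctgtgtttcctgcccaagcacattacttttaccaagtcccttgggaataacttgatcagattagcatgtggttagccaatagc
Slc37a2: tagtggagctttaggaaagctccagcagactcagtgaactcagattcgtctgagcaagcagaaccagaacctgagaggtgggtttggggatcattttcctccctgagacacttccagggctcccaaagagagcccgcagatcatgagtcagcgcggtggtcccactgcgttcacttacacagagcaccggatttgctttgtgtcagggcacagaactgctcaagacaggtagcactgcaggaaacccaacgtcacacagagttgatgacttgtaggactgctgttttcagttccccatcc
Slc1a4: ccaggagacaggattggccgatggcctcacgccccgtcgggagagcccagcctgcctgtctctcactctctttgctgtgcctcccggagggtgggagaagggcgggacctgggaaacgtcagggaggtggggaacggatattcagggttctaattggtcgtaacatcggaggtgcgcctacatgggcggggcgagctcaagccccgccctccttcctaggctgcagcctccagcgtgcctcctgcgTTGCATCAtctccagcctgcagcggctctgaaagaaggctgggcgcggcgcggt
Slc2a6 and Slc37a2 hold none of the 8 motifs searched in these windows. Capitals mark an antioxidant response core in Slc31a2, a kappaB site in Slc6a12, a STAT6 site in Slc10a6, and a CARE site, which ATF4 is known to bind, in Slc1a4. A match is a description of letters and not a site of binding.

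Each motif was searched on both strands in all 32851 listed windows, of which 197 belong to members. GAS (TTCNNNGAA) was found in 8.3% of all windows and in 9 of the member windows. The STAT6 site, which has the same TTC and GAA with 4 bases between them, was in 6.95% and in 12. The ISRE core (GAAA and GAAA with 2 bases between them) was in 3.44% of all windows and in 3 of the members' windows. kappaB (GGGA and TTTCC with 1 base between them) was in 0.411% and in 2, those of Slc6a12 and Slc37a4. CARE (TGATGNAA) was in 3.97% and in 4, those of Slc1a4, Slc7a7 and Slc50a1. Slc7a7 was lower with LPS+IFNg and higher with TGFb than in untreated cells, the reverse of Slc1a4. The antioxidant response core (TGACNNNGC) was in 12.4% and in 37, while CLEAR (GTCAC followed by GTGAC) and the SMAD box (GTCTAGAC), present in 0.326% and 0.213% of all windows, were in none of the members' windows. Matches of different motifs may overlap.

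Reads per library, worked out from the steps between values and approximate because values under 1 stand at 1, ranged between 2682564 and 18676181. All values below are normalized read counts unless another scale is named. The LPS+IFNg libraries did not resemble each other equally. A chi-square, divided by its degrees of freedom, was taken over all genes with at least 10 reads in a pair of libraries. It was 25.95 and 26.54 for LPS+IFNg replicate 3 against replicates 1 and 2, and 2.88 between replicates 1 and 2. It was 7.57 for IL4 replicates 1 and 3 and 2.59 to 3.35 for the other IL4 pairs, 1.58 to 2.16 among TGFb libraries and 1.42 to 2.91 among untreated libraries. This quantity grows with depth. The root mean square log2 difference over all genes was 0.465 and 0.488 for LPS+IFNg replicate 3 against replicates 1 and 2. It was 0.248 between replicates 1 and 2, beside 0.225 to 0.412 among untreated pairs. Of 10 microglia and macrophage markers 9 were in the table, with a summed value of 11461 to 12287 in LPS+IFNg, 14828 to 15507 in IL4, 17906 to 18939 in TGFb and 12481 to 13268 in untreated libraries. Cx3cr1 and Tmem119, markers of brain microglia, averaged 39.51 and 82.29 with TGFb, against 2.60 and 7.62 in untreated cells. Vwf, the endothelial marker in the table, lay between 97.1 and 121.2 in LPS+IFNg, 199.3 and 242.8 in IL4, 693.6 and 799.4 in TGFb, and 178.4 and 235.2 in untreated libraries. The summed values of 2 astrocyte markers (99.95 to 110.9 in LPS+IFNg, 72.72 to 108.8 in IL4, 65.74 to 85.37 in TGFb and 39.61 to 80.88 in untreated libraries), 2 oligodendrocyte markers (at most 34.5 with a stimulus and 43.15 untreated) and the neutrophil gene S100a8 (at most 26.34 with a stimulus and 9.431 untreated) were low. Of the listed markers of stem cells (6), neurons (7), fibroblasts (6) and T and B cells (7), 0 had a row in the table analysed. The part of these genes in the results was not tested.

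In untreated cells the members' mean values ran from 2.36 to 6716 with a median of 286.4, beside a median of 277.6 over all genes. A total of 36 members averaged 1000 or more and 7 averaged less than 10. Per kilobase of exon, the highest untreated level was that of Slc25a5, an exchanger of ATP and ADP of the inner mitochondrial membrane, at 2755 ± 56.9 normalized reads per kilobase (SD, n = 6). Slc48a1, a heme transporter of the endolysosome, followed at 1436 ± 64.6, and Slc25a4, another ATP and ADP exchanger, at 1141 ± 39.5 reads per kilobase. The next were Slc24a5, a cation exchanger, at 989.2 ± 49.2, Slc25a39, a mitochondrial glutathione carrier, at 822.9 ± 25.1, and the mitochondrial phosphate carrier Slc25a3 at 787.8 ± 14.4 reads per kilobase. Slc38a2 (glutamine and other neutral amino acids), Slc25a44 (branched-chain amino acids in mitochondria), Slc39a1 and Slc39a7 (zinc) completed the 10, at 759.9 ± 41.1, 711.9 ± 26.7, 630.6 ± 27.97 and 618.6 ± 13.4 reads per kilobase. The first 4 were separated from each other by more than the sum of their SDs, while the ranges of mean ± SD of Slc25a39, Slc25a3 and Slc38a2 overlapped. Slc24a5 shares 921 exon bases with Myef2 on the opposite strand, and whether the counting used the strand is not given in the sources used here.

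**Figure D1:**
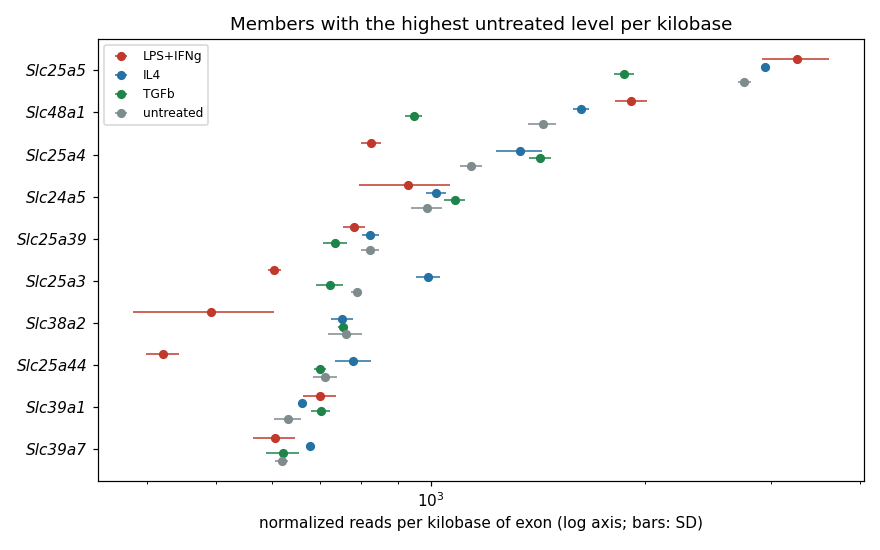
Normalized reads per kilobase of exon (log axis) for the 10 members with the highest untreated level, by group, with the mean as a point and the SD as a bar (n = 3 for each stimulus, n = 6 untreated). Slc25a5 lies at 3268 in LPS+IFNg, 2946 in IL4, 1870 in TGFb and 2755 in untreated cells.

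The order of these levels was not the same in every group. With TGFb, Slc48a1 stood at 946.8 ± 27.2 reads per kilobase (SD, n = 3), below Slc25a4 at 1426 ± 50.3. With LPS+IFNg, as in untreated cells, Slc48a1 was the higher, at 1912 ± 96.8, with Slc25a4 at 825.6 ± 27.4.

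LPS+IFNg changed the most members. Against untreated cells 50 members were higher and 71 lower, where a call is an adjusted p below 0.05 by limma; the background over all tested genes was 29.5% higher and 29.4% lower, 58.9% in either direction. The members' median log2 fold change was -0.06, beside 0.00 over all tested genes. IL4 changed fewer, with 30 higher and 16 lower against a background of 9.89% and 7.33% (17.2% in either direction) and a median of 0.05. TGFb raised 57 and lowered 48, against 24.1% and 23.4% of all genes (47.5% in either direction), with a median of 0.01. Where libraries were instead rescaled to the same total, all-gene medians moved to -0.12 for LPS+IFNg, -0.06 for IL4 and -0.06 for TGFb, and the split of called members became 43 higher and 89 lower, 23 and 27, and 45 and 57 in these comparisons. Without LPS+IFNg replicate 3 in the fit they were 49 and 66, 39 and 24, and 63 and 51. Of the called members, 65.2% were higher with IL4 as deposited, 46% after rescaling and 63% after quantile normalization; of all called genes these shares were 57.4%, 33.9% and 47.6%. With TGFb, 54.3% of the called members were higher as deposited, 44.1% after rescaling and 49.5% after quantile normalization, beside 50.8%, 37.8% and 45% of all called genes. RNA came from whole cultures, so fewer cells of a kind and less RNA per cell cannot be told apart.

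The members together made up 1.397 to 1.498% of the summed value in LPS+IFNg libraries, 1.637 to 1.673% in IL4, 1.602 to 1.631% in TGFb and 1.578 to 1.604% in untreated libraries. The LPS+IFNg range of shares lay below the untreated one, and the IL4 range above it. The members' own summed value was 117438 to 119712 in LPS+IFNg libraries and 116290 to 120441 in untreated libraries, which overlap, while the sum over all genes was 7854230 to 8568417 in LPS+IFNg and 7296586 to 7516564 in untreated libraries. With IL4 the members summed to 127653 to 129448, and with TGFb to 126155 to 127048.

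**Figure D2:**
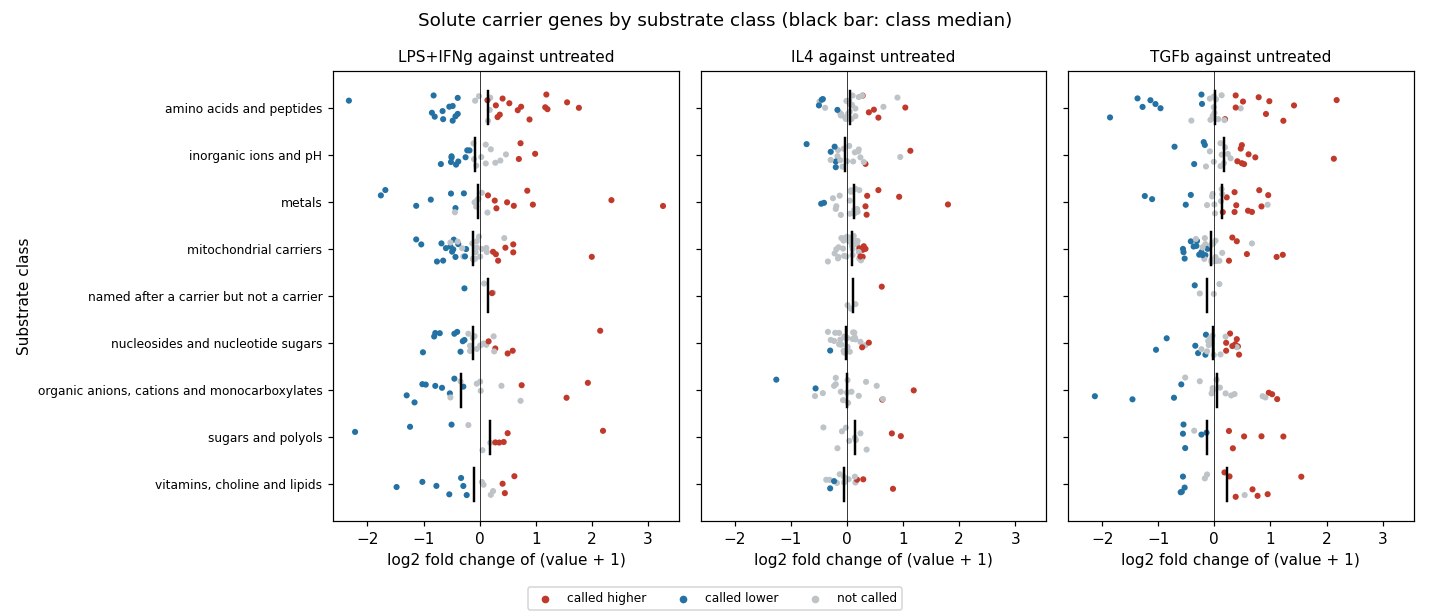
Log2 fold change (value + 1) of each of the 187 members against untreated cells, by substrate class, for the 3 stimuli; points are genes, coloured by call, and the black bar is the class median. LPS+IFNg has 50 members called higher and 71 lower, and IL4, where most members lie near 0, has 30 and 16.

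Among the 11 sugar and polyol carriers, LPS+IFNg raised 5 and lowered 3, IL4 raised 2 and lowered none, and TGFb raised 5 and lowered 5 (4 and 5 after rescaling). Without LPS+IFNg replicate 3, 4 were higher with IL4, and without TGFb replicate 3, 2 were lower with TGFb. With all libraries, the called shares were 72.7% (LPS+IFNg), 18.2% (IL4) and 90.9% (TGFb), beside 58.9%, 17.2% and 47.5% of all genes. Slc2a6, a hexose transporter homolog of the lysosomal membrane, and Slc37a2, an exchanger of glucose 6-phosphate and phosphate of the endoplasmic reticulum, moved furthest. Slc2a6 (chromosome 2, 27021363 to 27027998, minus strand, GRCm38) had 3741, 3977 and 3578 in LPS+IFNg libraries, 900, 899.3 and 907.1 in IL4, 769.2, 759.8 and 700.3 in TGFb, and 756.6 to 856 with a median of 825.7 in untreated libraries. Every LPS+IFNg library was above every other library. The log2 fold change with LPS+IFNg was 2.20 (SE 0.05, adjusted p = 5.23e-17) and the ratio of means was 4.60.

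Slc37a2 (chromosome 9, 37227585 to 37255738, minus strand) had 383.5, 350.8 and 494.5 in LPS+IFNg libraries, 3431, 3392 and 3058 in IL4, 4338, 4625 and 4343 in TGFb, and 1773 to 2024 with a median of 1918 in untreated libraries. The 4 groups did not overlap: LPS+IFNg was lowest and TGFb highest. Its log2 fold changes were -2.22 with LPS+IFNg (SE 0.08, adjusted p = 1.79e-14), 0.80 with IL4 (SE 0.08, adjusted p = 7.39e-07) and 1.23 with TGFb (SE 0.08, adjusted p = 3.91e-10). Its family member Slc37a3 went the other way, with a log2 fold change of 0.35 with LPS+IFNg (adjusted p = 0.00136, and 0.22 after rescaling) and -0.52 with TGFb (adjusted p = 3.89e-05).

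The other named sugar and polyol carriers moved less. Slc2a9, known for urate transport, rose by 0.96 on the log2 scale with IL4 (adjusted p = 3.22e-05) to 130.3, 115.8 and 120.7, against 49.61 to 71.67 in untreated libraries. Slc2a8, an intracellular hexose transporter, rose with TGFb to 163.7, 172.9 and 183.5, against 72.85 to 112.2 untreated (log2 fold change 0.84, adjusted p = 3.77e-05). Slc5a3, which takes up the osmolyte myo-inositol, rose by 0.43 with LPS+IFNg (adjusted p = 0.00301) and fell by 0.56 with TGFb (adjusted p = 0.000448). It shares 159 exon bases with Mrps6 on the same strand, so reads of the pair cannot be fully told apart. Slc45a4 fell by 0.50 with LPS+IFNg (adjusted p = 9.92e-06).

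Of the 31 amino acid and peptide carriers, LPS+IFNg raised 14 and lowered 12 (13 and 13 after rescaling), a called share of 83.9%, beside 58.9% of all genes. IL4 raised 5 and lowered 4 (4 and 6 after rescaling), and TGFb raised 10 and lowered 8 (9 and 11 after rescaling). Called shares with IL4 and TGFb were 29% and 58.1%, beside 17.2% and 47.5% of all genes. Slc6a9, which takes up glycine, had 949.2, 941.4 and 885.2 in LPS+IFNg libraries, 186.5, 169.4 and 220.3 in IL4, 132.4, 81.1 and 126.3 in TGFb, and 208.1 to 315 with a median of 281.7 in untreated libraries. LPS+IFNg lay above all other libraries and TGFb below all untreated ones, with log2 fold changes of 1.77 (SE 0.14, adjusted p = 2.85e-09) and -1.28 (SE 0.14, adjusted p = 4.58e-07). Slc6a9 shares 1429 exon bases with Ccdc24, a gene not analysed here.

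Slc1a4, a carrier of alanine, serine and cysteine, had 153.4, 154.7 and 202.1 in LPS+IFNg libraries, 57.97, 67.76 and 66.26 in IL4, 34.83, 14.94 and 26.68 in TGFb, and 61.81 to 113.2 with a median of 93.64 in untreated libraries. LPS+IFNg was higher by 0.89 (SE 0.22, adjusted p = 0.00172) and TGFb lower by 1.86 log2 units (SE 0.22, log2 fold change -1.86, adjusted p = 1.21e-06), both without overlap. Slc1a5, the main glutamine carrier of many dividing cells, had 2338, 2307 and 2522 with LPS+IFNg, 1807, 1696 and 1903 with IL4, 1013, 983.9 and 1010 with TGFb, and 1848 to 2021 (median 1964) untreated. All 3 TGFb libraries lay below every untreated library, with a log2 fold change of -0.96 (adjusted p = 1.17e-11), and LPS+IFNg gave 0.29 (adjusted p = 3.07e-05), or 0.16 after rescaling.

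Arginine enters macrophages through Slc7a1 and Slc7a2. Slc7a1 had 4588, 4558 and 4177 in LPS+IFNg libraries, 3634, 3635 and 3994 in IL4, 1884, 1720 and 1910 in TGFb, and 3953 to 4131 (median 4023) in untreated libraries. TGFb stood apart from all other libraries, with a log2 fold change of -1.14 (SE 0.05, adjusted p = 1.26e-12), while LPS+IFNg gave 0.14 (adjusted p = 0.0172), a call that was lost after rescaling (0.01), after quantile normalization (-0.04) and without LPS+IFNg replicate 1 (0.11) or 2 (0.12). Slc7a2 had 246.4, 219.2 and 810.7 in LPS+IFNg libraries, 333.5, 288 and 319.4 in IL4, 198.5, 213.4 and 220 in TGFb, and 124.5 to 181 (median 146.9) in untreated libraries. The LPS+IFNg value rested on replicate 3: the group mean was 425.4 with it and 232.8 without it, and the log2 fold change 1.21 (adjusted p = 0.000702) with it and 0.61 (adjusted p = 0.000146) without it. With IL4, Slc7a2 rose by 1.04 (SE 0.26, adjusted p = 0.0102), and all 3 libraries were above the untreated range.

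Slc7a5 and its heavy chain Slc3a2, which together exchange large neutral amino acids, moved apart with LPS+IFNg. Slc7a5 had 603.6, 665.4 and 598.4 with LPS+IFNg, 589.3, 578.8 and 654.5 with IL4, 336.1, 292.4 and 318.9 with TGFb, and 763.8 to 863.9 (median 821.1) untreated. All 9 stimulated libraries were below the untreated ones, with log2 fold changes for LPS+IFNg, IL4 and TGFb of -0.39 (adjusted p = 2.55e-05), -0.43 (adjusted p = 8.06e-05) and -1.37 (adjusted p = 4.41e-12). Slc3a2 had 2328, 2322 and 2422 in LPS+IFNg libraries, 1481, 1559 and 1603 in IL4, 1253, 1366 and 1170 in TGFb, and 1456 to 1485 (median 1463) in untreated libraries. It rose by 0.68 with LPS+IFNg (adjusted p = 3.06e-10) and fell by 0.22 with TGFb (adjusted p = 0.000683).

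The proton-coupled carriers of small amino acids, Slc36a1 on lysosomes and Slc36a2, were lower with LPS+IFNg and higher with TGFb. Slc36a2 (chromosome 11, 55158470 to 55185077, minus strand) had 80.58, 76.51 and 49.68 in LPS+IFNg libraries, 257, 251.3 and 244.6 in IL4, 1603, 1579 and 1480 in TGFb, and 316.9 to 363.3 (median 351.3) in untreated libraries. No group overlapped another. The log2 fold changes were -2.33 (SE 0.11, adjusted p = 1.26e-12) with LPS+IFNg, -0.45 (SE 0.11, adjusted p = 0.00724) with IL4 and 2.18 (SE 0.11, adjusted p = 1.63e-11) with TGFb. Slc36a1 had 451.7, 460.8 and 377.1 with LPS+IFNg, 623.9, 563.3 and 612.5 with IL4, 1332, 1342 and 1388 with TGFb, and 528.4 to 624.8 (median 584.6) untreated. It fell by 0.43 with LPS+IFNg (adjusted p = 2.31e-05) and rose by 1.23 with TGFb (adjusted p = 6.18e-11).

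Slc15a3, a lysosomal carrier of histidine and short peptides, was higher with each stimulus, at 3904, 4178 and 3926 in LPS+IFNg libraries, 2185, 2372 and 2366 in IL4, 3307, 3470 and 3187 in TGFb, and 1580 to 1895 (median 1772) in untreated libraries. The log2 fold changes with LPS+IFNg, IL4 and TGFb were 1.19, 0.39 and 0.92, with adjusted p = 7.84e-13, 4.35e-05 and 1.36e-10. Slc15a3 shares 1541 exon bases with Tmem132a on the opposite strand. Tmem132a averaged 292.9 with LPS+IFNg, 312.5 with IL4, 427 with TGFb and 291.8 untreated. Like Slc15a3, Tmem132a rose with TGFb (log2 fold change 0.56, adjusted p = 0.000592). Slc6a12, a betaine and GABA carrier, had 730.7, 618.1 and 487.7 with LPS+IFNg, against 145.3 to 273.5 (median 210.6) untreated, a log2 fold change of 1.56 (SE 0.18, adjusted p = 4.54e-07). The creatine carrier Slc6a8 had 4677, 4847 and 4880 with TGFb, against 2348 to 2637 untreated, a log2 fold change of 0.98 (adjusted p = 3.58e-12). Slc38a2 and Slc6a17 fell by 0.65 and 0.85 with LPS+IFNg. Without LPS+IFNg replicate 3 their log2 fold changes were -0.45 and -0.88. Slc7a8 rose by 0.56 with IL4 and 0.38 with TGFb.

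**Figure D3:**
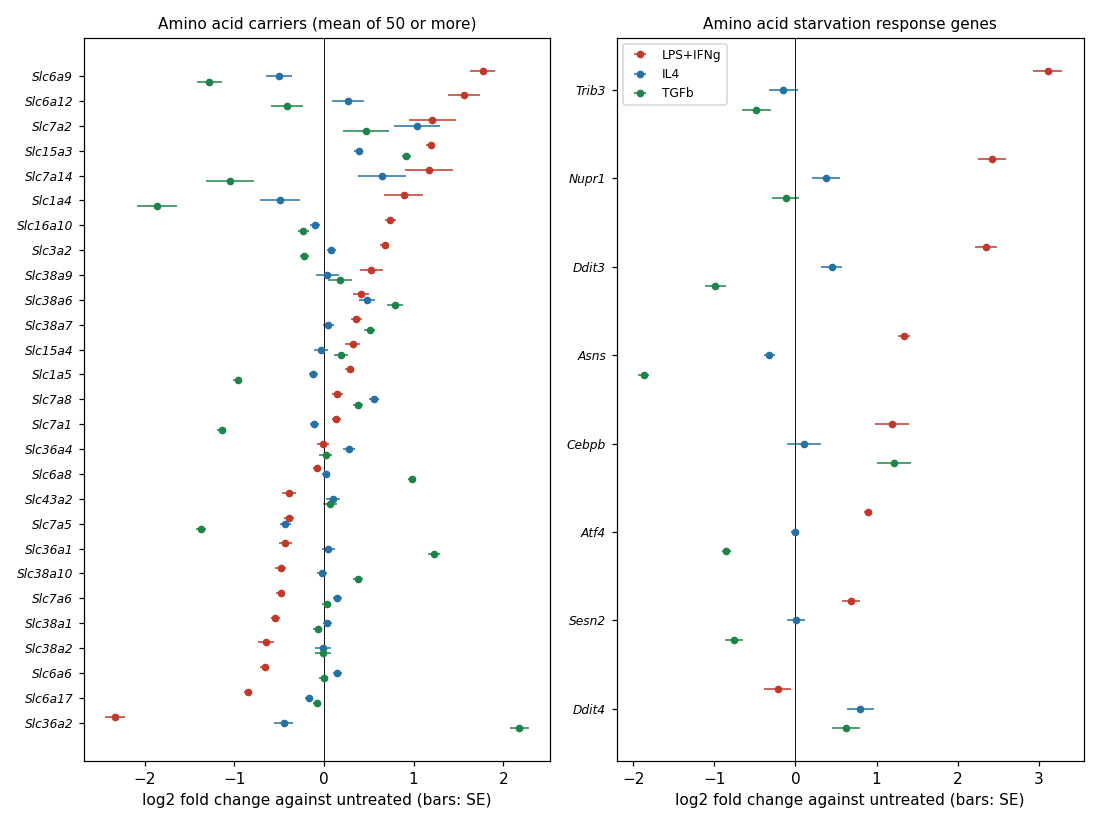
Log2 fold change (value + 1) against untreated cells with its SE, for the amino acid carriers with a mean of 50 or more in some group (left) and for the measured genes of the amino acid starvation response (right), for LPS+IFNg, IL4 and TGFb. Slc6a9 is at 1.77 and Asns at 1.34 with LPS+IFNg, and they are at -1.28 and -1.87 with TGFb.

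Several of these carriers are known targets of the amino acid starvation response, in which ATF4 raises genes for amino acid uptake and synthesis. With LPS+IFNg, 14 of the 31 amino acid and peptide carriers rose and 12 fell, Slc7a5 and Slc38a2 among those that fell. Of 10 response genes, listed with earlier results of these data known, 8 were in the table. LPS+IFNg raised 7 and lowered none (median 1.27 on the log2 scale, beside 58.9% of all genes called), and TGFb raised 2 and lowered 5 (median -0.62, beside 47.5% called). Asns, asparagine synthetase, averaged 1886 with LPS+IFNg, 597 with IL4, 203.5 with TGFb and 743.8 untreated. Atf4 averaged 4762 with LPS+IFNg, 2528 with IL4, 1407 with TGFb and 2547 untreated. Trib3, a target and feedback inhibitor, averaged 1232 with LPS+IFNg (918.2 to 1839), 120.8 with IL4, 96.32 with TGFb and 136.3 untreated. Its call with TGFb (log2 fold change -0.48, adjusted p = 0.0405) was lost under 6 alternatives, among them leaving out any 1 TGFb library. Ddit4 and Cebpb were the 2 genes that rose with TGFb. Whether these genes and the carriers share a cause was not tested.

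Metal carriers split by direction within each stimulus. Of the 23, LPS+IFNg raised 9 and lowered 7 (7 and 10 after rescaling). IL4 raised 6 and lowered 2 (6 and 4 after rescaling), and TGFb raised 10 and lowered 4 (8 and 5 after rescaling). Called shares of the metal carriers were 69.6% (LPS+IFNg), 34.8% (IL4) and 60.9% (TGFb), beside 58.9%, 17.2% and 47.5% of all genes. Both copper carriers rose with LPS+IFNg. Slc31a2, a copper transporter of endosomes, had 1127, 1070 and 1298 in LPS+IFNg libraries, 438.7, 434.8 and 428.3 in IL4, 345.4, 339.3 and 347.6 in TGFb, and 204.5 to 244.5 (median 227.9) in untreated libraries. Each stimulus was above untreated with no overlap, and the log2 fold changes with LPS+IFNg, IL4 and TGFb were 2.35 (SE 0.07, adjusted p = 1.63e-15), 0.93 (SE 0.07, adjusted p = 2.21e-08) and 0.60 (SE 0.07, adjusted p = 1.12e-06). Slc31a1, the plasma membrane copper importer, had 1577, 1533 and 2081 with LPS+IFNg, 1284, 1211 and 1155 with IL4, and 871.6 to 991.9 (median 972.2) untreated, with log2 fold changes of 0.85 (adjusted p = 1.65e-08) and 0.35 (adjusted p = 0.0028).

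Zinc carriers of the Slc39 family, which bring zinc into the cytosol, moved in both directions. Slc39a10 had 169.7, 184 and 102.7 in LPS+IFNg libraries, 450, 419.3 and 376.5 in IL4, 218.9, 183.5 and 199.8 in TGFb, and 421.6 to 520.6 (median 479.5) in untreated libraries. LPS+IFNg and TGFb lay below all untreated libraries, with log2 fold changes of -1.68 (SE 0.13, adjusted p = 2.78e-09) and -1.24 (SE 0.13, adjusted p = 3.58e-07). Slc39a12 was low throughout, at 4.65, 3.44 and 5.65 with LPS+IFNg, 63.35, 73.41 and 55.48 with IL4, 7.55, 6.40 and 9.11 with TGFb, and 11.33 to 25.89 (median 18.29) untreated. IL4 stood above all other libraries (log2 fold change 1.80, SE 0.25, adjusted p = 4.61e-05), and LPS+IFNg and TGFb below untreated, with log2 fold changes of -1.76 (adjusted p = 6.46e-06) and -1.11 (adjusted p = 0.00114). With 8 in place of 1 added to each value, they were -1.04 and -0.72. Slc39a4, the zinc importer of the intestine, had 67.41, 66.2 and 30.48 with LPS+IFNg and 1 to 14.38 (median 5.24) untreated. Its log2 fold change of 3.27 (SE 0.54, adjusted p = 4.19e-05) became 2.17 with 8 added.

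Slc39a2 had 624.5, 619 and 832.1 with LPS+IFNg, 407.6, 419.3 and 387.3 with IL4, 1053, 1116 and 1077 with TGFb, and 530.6 to 590.4 (median 548.1) untreated. It was above untreated with LPS+IFNg and TGFb and below it with IL4, with log2 fold changes for LPS+IFNg, TGFb and IL4 of 0.30 (adjusted p = 0.00214), 0.96 (adjusted p = 7.01e-09) and -0.46 (adjusted p = 0.000281). The LPS+IFNg value was 0.18 after rescaling and 0.16 without LPS+IFNg replicate 3. Slc39a2 shares 151 exon bases with Mettl17 on the same strand. Slc39a6 rose by 0.56 with IL4 (adjusted p = 1.83e-05) and fell by 0.43 with LPS+IFNg and by 0.51 with TGFb. Slc39a14 fell by 0.41 with IL4 (adjusted p = 0.00139).

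Slc30a5, which loads zinc into the secretory pathway, had 931.3, 888.1 and 710.2 in LPS+IFNg libraries, against 1746 to 2071 (median 1811) in untreated libraries. All 3 were below every untreated library, with a log2 fold change of -1.13 (SE 0.07, adjusted p = 9.38e-11). Slc41a2, a magnesium transporter, had 186, 171.1 and 178.4 with LPS+IFNg, 460.8, 398.1 and 405.1 with IL4, 526.6, 529.3 and 505.7 with TGFb, and 288.6 to 397 (median 325.6) untreated, and the log2 fold changes with LPS+IFNg, IL4 and TGFb were -0.87, 0.36 and 0.67 (adjusted p = 5.72e-08, 0.00544 and 3.14e-06). Metallothioneins, which bind zinc and copper, are known to rise with free zinc. Mt2 lay between 8201 and 17468 in LPS+IFNg libraries, 4722 and 5216 in IL4, 8064 and 8861 in TGFb, and 6103 and 6547 in untreated libraries, with a log2 fold change of 0.73 with LPS+IFNg (adjusted p = 0.00043) that was 0.37 without LPS+IFNg replicate 3. Mt1 rose with TGFb by 0.56 and had a log2 fold change of -0.14 with LPS+IFNg (adjusted p = 0.24), and the zinc sensor Mtf1 rose with LPS+IFNg by 0.37.

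**Figure D4:**
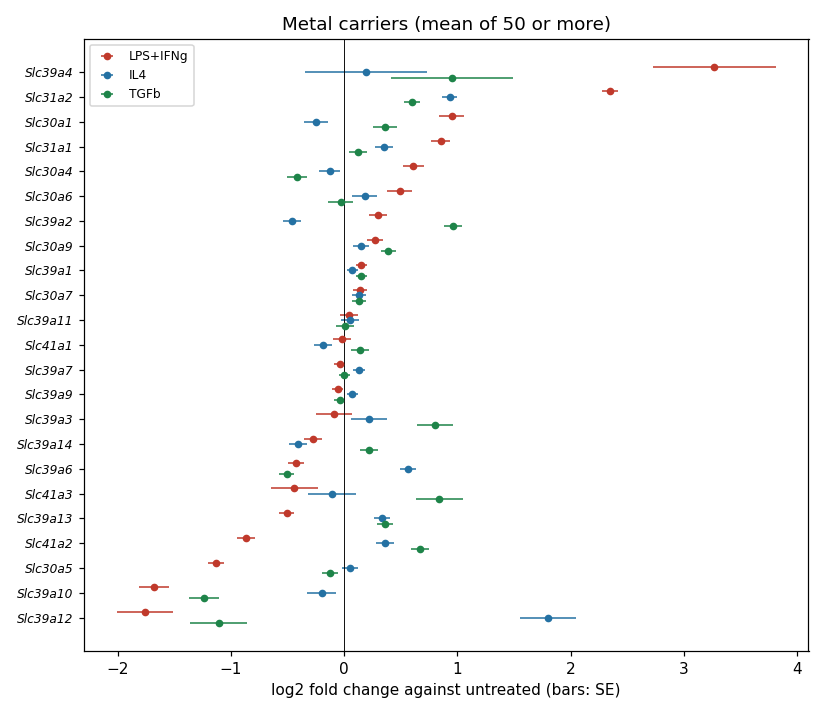
Log2 fold change (value + 1) against untreated cells with its SE for the metal carriers with a mean of 50 or more in some group, for LPS+IFNg, IL4 and TGFb. Slc31a2 is above 0 with each stimulus (2.35, 0.93 and 0.60), and Slc39a12 is at -1.76, 1.80 and -1.11.

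The mitochondrial family Slc25, the largest class, had 7 members higher and 14 lower with LPS+IFNg (6 and 20 after rescaling), 7 higher and none lower with IL4 (3 and 1), and 6 higher and 12 lower with TGFb (6 and 12). With 1 library left out, the 7 for IL4 became 5 to 10 and the 12 for TGFb became 8 to 12. The class's called shares were near those of all genes. They were 55.3% (LPS+IFNg), 18.4% (IL4) and 47.4% (TGFb), beside 58.9%, 17.2% and 47.5%. The member that moved furthest was Slc25a37, mitoferrin, which brings iron into mitochondria for heme and iron-sulfur clusters. Slc25a37 (chromosome 14, 69241848 to 69285112, minus strand) had 1236, 1117 and 1071 in LPS+IFNg libraries, 258.8, 265.4 and 235.4 in IL4, 593.9, 610.4 and 634.6 in TGFb, and 269 to 299.1 (median 283.8) in untreated libraries. LPS+IFNg and TGFb were each above all untreated libraries, with log2 fold changes of 2.0 (SE 0.06, adjusted p = 3.48e-15) and 1.11 (SE 0.06, adjusted p = 8.57e-11). With IL4 the log2 fold change was -0.16 (adjusted p = 0.0808).

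The exchangers of ATP and ADP moved in opposite directions with LPS+IFNg and with TGFb. Slc25a4 had 1916, 2016 and 1896 with LPS+IFNg, 2870, 3313 and 3230 with IL4, 3268, 3489 and 3306 with TGFb, and 2553 to 2783 (median 2703) untreated. Its log2 fold changes with LPS+IFNg, IL4 and TGFb were -0.47 (adjusted p = 1.41e-07), 0.22 (adjusted p = 0.00331) and 0.32 (adjusted p = 2.5e-05). Slc25a5 had 5008, 5085 and 6042 with LPS+IFNg, 2998, 3191 and 3045 with TGFb, and 4401 to 4674 (median 4535) untreated, with log2 fold changes of 0.24 (adjusted p = 0.000483) and -0.56 (adjusted p = 4.83e-08). The LPS+IFNg value was 0.12 after rescaling, 0.08 after quantile normalization and 0.15 without LPS+IFNg replicate 3. The phosphate carrier Slc25a3 had 3336, 3429 and 3291 with LPS+IFNg, 5261, 5636 and 5631 with IL4, and 4257 to 4492 (median 4378) untreated, so that both stimuli lay outside the untreated range, on opposite sides. How the counting treated reads shared by closely related genes such as Slc25a4 and Slc25a5 is not given in the sources used here.

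Other mitochondrial carriers were lower with LPS+IFNg. Slc25a15, which carries ornithine and citrulline for the urea cycle, had 65.09, 78.23 and 42.9, against 121.4 to 152.5 untreated (log2 fold change -1.13, adjusted p = 2.09e-06). Slc25a44 fell by 0.76 to 1512, 1586 and 1425, against 2393 to 2674 untreated. Slc25a23, a calcium-dependent carrier of ATP and phosphate, fell by 0.68, and its relative Slc25a25 rose by 0.46 with LPS+IFNg and 0.40 with TGFb. Slc25a25 shares 379 exon bases with Naif1 on the opposite strand, which averaged 66.73 with LPS+IFNg, 74.73 with TGFb and 53.61 untreated. Slc25a12, the aspartate and glutamate carrier, rose by 0.28 with IL4 and fell by 0.55 with TGFb. Of 5 measured mitochondrial carriers under other names, the uncoupling protein Ucp2 averaged 2364 with LPS+IFNg, 3110 with IL4, 6295 with TGFb and 3205 untreated, lower with LPS+IFNg (log2 fold change -0.47, adjusted p = 0.00032) and higher with TGFb (0.97, adjusted p = 1.1e-07). Mpc1, a subunit of the pyruvate carrier, rose by 0.52 with LPS+IFNg.

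Of the 22 carriers of inorganic ions and pH, 3 were higher and 9 lower with LPS+IFNg (3 and 12 after rescaling). With IL4, 2 were higher and 5 lower (2 and 7 after rescaling), and with TGFb 8 higher and 4 lower (6 and 5 after rescaling). Called shares of this class were 54.5% (LPS+IFNg), 31.8% (IL4) and 54.5% (TGFb), beside 58.9%, 17.2% and 47.5% of all genes. Without LPS+IFNg replicate 1, 5 were higher with LPS+IFNg. Without untreated replicate 3, 4 or 5 or IL4 replicate 2 or 3, 3 were lower with IL4, and without TGFb replicate 1 or 3, 5 were higher with TGFb. Slc4a2, which exchanges chloride for bicarbonate, had 1364, 1351 and 1228 in LPS+IFNg libraries, 4517, 4626 and 4717 in IL4, 3101, 3114 and 2944 in TGFb, and 2023 to 2230 (median 2108) in untreated libraries. The 4 groups did not overlap, and the log2 fold changes with LPS+IFNg, IL4 and TGFb were -0.69 (SE 0.04, adjusted p = 1.99e-10), 1.13 (SE 0.04, adjusted p = 5.29e-12) and 0.53 (SE 0.04, adjusted p = 1.94e-08). Slc4a2 shares 1141 exon bases with Fastk on the opposite strand. Fastk averaged 621.1 with LPS+IFNg, 558.8 with IL4, 479.3 with TGFb and 559 untreated. Its log2 fold changes with LPS+IFNg and TGFb were 0.15 (adjusted p = 0.0219) and -0.22 (adjusted p = 0.00263). Slc4a7, which brings in sodium with bicarbonate, had 1334, 1273 and 1099 with LPS+IFNg, 695.6, 669.2 and 611.9 with IL4, 563.7, 591.2 and 615.7 with TGFb, and 704.8 to 810.1 (median 761) untreated. It was higher with LPS+IFNg by 0.70 (adjusted p = 2.91e-08) and lower with TGFb, at a log2 fold change of -0.36 (adjusted p = 0.000173).

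Slc9a4, a sodium and proton exchanger, fell by 0.42 with LPS+IFNg (log2 fold change -0.42, and -0.22 without LPS+IFNg replicate 3) and by 0.71 with TGFb. The phosphate importer Slc20a1 had 3822, 3737 and 3743 with TGFb, against 2156 to 2348 (median 2317) untreated, a log2 fold change of 0.73 (adjusted p = 5.62e-10), and fell by 0.25 with LPS+IFNg and by 0.29 with IL4. Among the potassium and chloride cotransporters Slc12a4 fell by 0.50 with LPS+IFNg and Slc12a7 rose by 0.33 with IL4. Slc9a5 fell by 0.72 with IL4 (adjusted p = 0.00375) with overlapping libraries.

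Of the 19 carriers of organic anions, cations and monocarboxylates, 3 were higher and 9 lower with LPS+IFNg (3 and 10 after rescaling). The median was -0.34, the lowest of any class in that comparison. With IL4, 2 were higher and 2 lower (2 and 3 after rescaling), and with TGFb 3 were higher and 4 lower. Called shares were 63.2% (LPS+IFNg), 21.1% (IL4) and 36.8% (TGFb), beside 58.9%, 17.2% and 47.5% of all genes. Without IL4 replicate 1 or 2, 0 were lower with IL4; without LPS+IFNg replicate 3, 5 were higher with TGFb, and without TGFb replicate 3, 2 were lower with it. Slc10a6, which imports sulfated steroids, had 202.2, 184.8 and 241.6 in LPS+IFNg libraries, 86.06, 84.71 and 81.34 in IL4, 11.03, 10.67 and 13.02 in TGFb, and 41.5 to 70.48 (median 55.65) in untreated libraries. None of the 4 groups overlapped, with LPS+IFNg highest and TGFb lowest. The log2 fold changes with LPS+IFNg, IL4 and TGFb were 1.93 (SE 0.16, adjusted p = 7.51e-09), 0.63 (SE 0.16, adjusted p = 0.0105) and -2.13 (SE 0.16, adjusted p = 5.07e-09). Slc17a5, which releases sialic acid from the lysosome, had 328.5, 309.5 and 329.7 with LPS+IFNg, 855.2, 947.3 and 887.7 with IL4, 790.7, 804.6 and 821.4 with TGFb, and 358.6 to 411.9 (median 400.6) untreated. It fell by 0.29 with LPS+IFNg (adjusted p = 0.000243) and rose by 1.19 with IL4 (adjusted p = 8.08e-11) and 1.03 with TGFb (adjusted p = 5.16e-11).

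Slc10a7 had 70.51, 83.39 and 54.19 with LPS+IFNg, against 142.3 to 181.2 untreated (log2 fold change -1.16, adjusted p = 3.58e-07). Slc22a4, a carrier of the antioxidant ergothioneine, rose by 0.75 with LPS+IFNg to 137.1, 133.3 and 158.1, against 70.64 to 103.7 untreated. Slc16a6, of the monocarboxylate carrier family, fell by 0.45 with LPS+IFNg and by 0.59 with TGFb, and it shares 1052 exon bases with Amz2, which rose with both. Slc13a3 and Slc22a18 were near the low end of detection, at untreated medians of 5.54 and 12.52. Slc22a18 had a log2 fold change of 1.12 with TGFb (adjusted p = 0.00181).

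Of the 25 nucleoside and nucleotide sugar carriers, 5 were higher and 9 lower with LPS+IFNg (3 and 13 after rescaling). With IL4 these counts were 2 and 1 (1 and 4 after rescaling), and with TGFb 8 and 6 (4 and 9 after rescaling). Without LPS+IFNg replicate 3, 3 were lower with IL4, and without TGFb replicate 3, 5 were higher with TGFb. With all libraries, the called shares were 56% (LPS+IFNg), 12% (IL4) and 56% (TGFb), beside 58.9%, 17.2% and 47.5% of all genes. Slc43a3, which takes up purine nucleobases, had 480.4, 459.1 and 779 in LPS+IFNg libraries, 101.6, 96 and 96.96 in IL4, 119, 111 and 115.9 in TGFb, and 102.6 to 145.7 (median 126) in untreated libraries. LPS+IFNg was above all others, with replicate 3 the highest; the log2 fold change was 2.15 (SE 0.14, adjusted p = 1.22e-10) and 1.91 without that library. Slc29a2, an equilibrative nucleoside carrier, had 107.7, 126.4 and 100.5 with LPS+IFNg, 233.1, 208.9 and 240.3 with IL4, 101, 91.77 and 85.91 with TGFb, and 165.3 to 221.9 (median 196.9) untreated. It was below the untreated range with LPS+IFNg (log2 fold change -0.79, adjusted p = 4.38e-06) and TGFb (-1.04, adjusted p = 2.31e-07). Slc29a1 of the same family fell by 0.30 with IL4 (adjusted p = 0.000314).

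Many Slc35 carriers lie in the Golgi and endoplasmic reticulum. Slc35a4 had 567.2, 592.3 and 495.7 with LPS+IFNg, against 1012 to 1196 untreated (log2 fold change -1.01, adjusted p = 4.16e-11), and Slc35e1 fell by 0.81 with LPS+IFNg. Slc35f5 rose by 0.59 with LPS+IFNg, 0.39 with IL4 and 0.32 with TGFb. Slc35b1 rose by 0.42 with TGFb, and Slc35f6 fell by 0.45 with LPS+IFNg. Slc35a4 shares 152 exon bases with Apbb3 on the opposite strand. Apbb3 was also lower with LPS+IFNg, averaging 41.66 against 60.02 untreated (log2 fold change -0.51, adjusted p = 0.00677).

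Among the 14 carriers of vitamins, choline and lipids, 3 were higher and 7 lower with LPS+IFNg, 3 and 2 with IL4 (2 and 2 after rescaling), and 7 and 4 with TGFb (5 and 5 after rescaling). Without IL4 replicate 1 or 2, 0 were lower with IL4. With all libraries, the called shares were 71.4% (LPS+IFNg), 35.7% (IL4) and 78.6% (TGFb), beside 58.9%, 17.2% and 47.5% of all genes. Slc46a3, a lysosomal carrier, had 72.06, 63.62 and 94.84 in LPS+IFNg libraries, 391.4, 376.9 and 364.1 in IL4, 150.9, 132.3 and 158.2 in TGFb, and 184.3 to 271.8 (median 207) in untreated libraries. The groups did not overlap, and the log2 fold changes with LPS+IFNg, IL4 and TGFb were -1.48 (adjusted p = 8.13e-09), 0.82 (adjusted p = 0.000137) and -0.53 (adjusted p = 0.00181). Slc46a1, the proton-coupled folate carrier, had 154.4, 170.7 and 143.2 with TGFb, against 40.84 to 82.99 (median 51.1) untreated, a log2 fold change of 1.55 (SE 0.21, adjusted p = 6.93e-06). The reduced folate carrier Slc19a1 had 180.5, 160.1 and 171.2 with TGFb, against 241 to 274.8 untreated, a log2 fold change of -0.58 (adjusted p = 1.41e-05), so the folate carriers moved apart with TGFb.

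The fatty acid carrier Slc27a1 rose with TGFb to 2723, 2836 and 2573, against 1292 to 1582 (median 1379) untreated (log2 fold change 0.95, adjusted p = 3.8e-09). With LPS+IFNg, its relative Slc27a4 fell by 0.77 (adjusted p = 2.16e-07), and Slc27a1 had a log2 fold change of 0.04 (adjusted p = 0.68). The ascorbate carrier Slc23a2 rose with LPS+IFNg to 2655, 2542 and 2965 and with TGFb to 2918, 2614 and 2948, against 1670 to 1919 (median 1745) untreated, by 0.62 and 0.68. The heme carrier Slc48a1 had 5547, 5211 and 5021 with LPS+IFNg, 2686, 2538 and 2591 with TGFb, and 3717 to 4136 (median 3968) untreated, with log2 fold changes of 0.41 (adjusted p = 3.48e-07, and 0.26 after quantile normalization) and -0.60 (adjusted p = 5.25e-09). Slc5a6, which takes up biotin and pantothenate, fell by 1.02 with LPS+IFNg (adjusted p = 6.86e-06), and the riboflavin carrier Slc52a2 fell by 0.29 (adjusted p = 0.000259). Slc5a6 shares 396 exon bases with Atraid on the opposite strand. Atraid was also lower with LPS+IFNg, averaging 141.4 against 185.4 untreated (log2 fold change -0.39, adjusted p = 0.000498).

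Of the 4 genes that are only named after a carrier, Slc9a3r1 encodes a scaffold that anchors membrane proteins. Slc9a3r1 rose by 0.62 with IL4 (adjusted p = 7.3e-06) to 1124, 1439 and 1431, against 793 to 932.6 untreated. It fell by 0.27 with LPS+IFNg. Slc7a6os fell by 0.35 with TGFb.

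**Figure D5:**
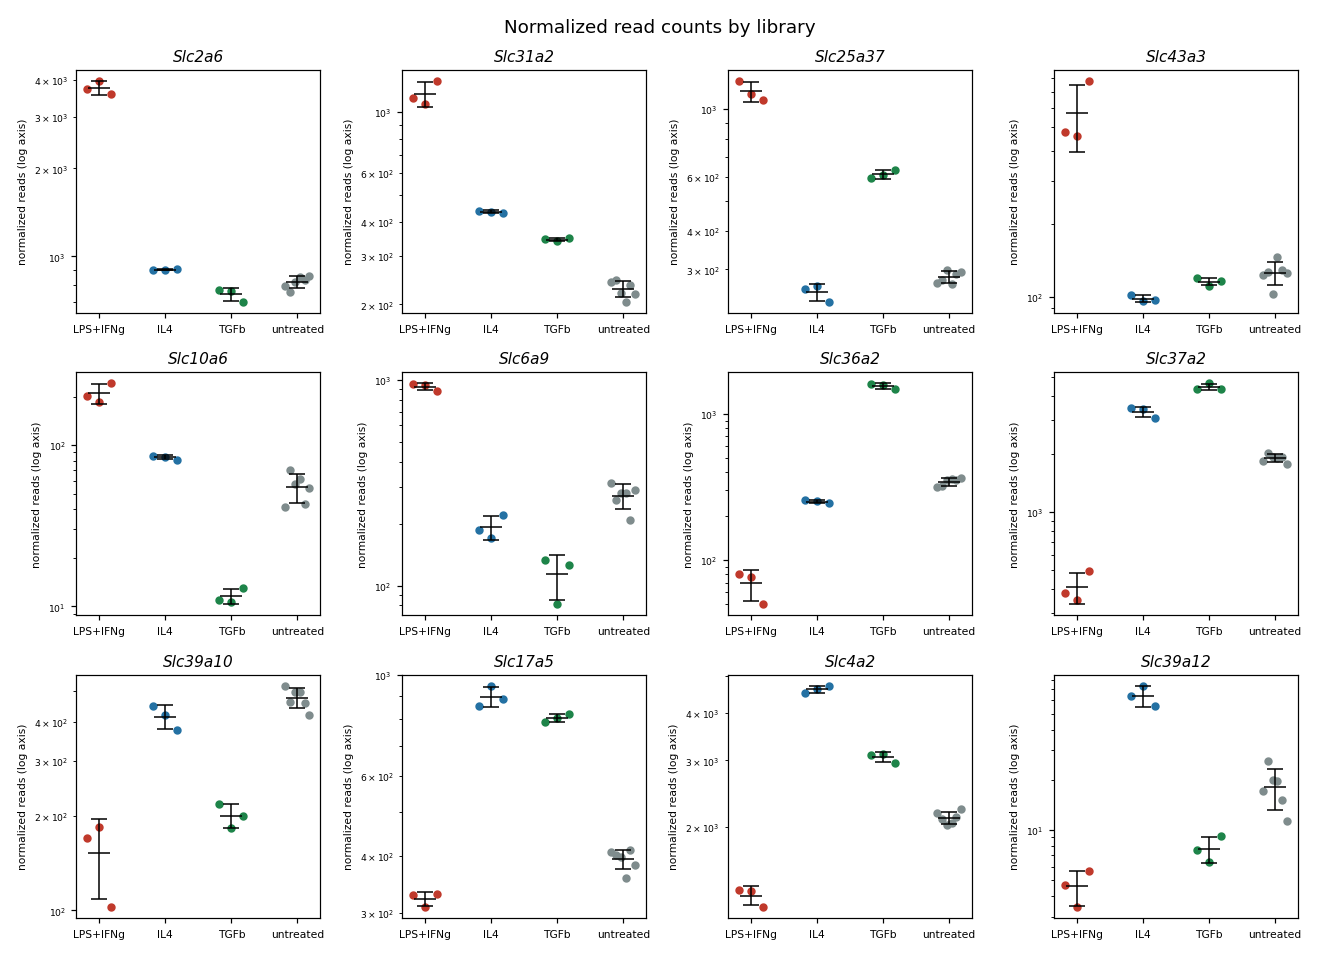
Normalized read counts per library (log axes) of 12 members that moved far with a stimulus, with each group's mean as a bar and its SD (n = 3, 3, 3 and 6). Slc2a6 sits between 3578 and 3977 with LPS+IFNg and between 756.6 and 856 in untreated libraries, and Slc36a2 is lowest with LPS+IFNg and highest with TGFb.

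The stimuli were also compared with each other directly. LPS+IFNg against IL4 had 46 members higher and 72 lower, beside 28.8% and 28.8% of all genes (57.7% in either direction), with a median of -0.10. LPS+IFNg against TGFb had 48 higher and 75 lower, beside 31.9% and 30.8% (62.6%), with a median of -0.15. IL4 against TGFb had 48 higher and 42 lower, beside 20.7% and 19% (39.7%), with a median of 0.03. The all-gene medians were 0.00, 0.00 and 0.01.

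Slc36a2 gave the largest difference between stimuli among the named members, -4.51 for LPS+IFNg against TGFb (SE 0.13, adjusted p = 6.69e-16), and it was also lower with IL4 than with TGFb (-2.63, adjusted p = 1.27e-11). Slc10a6 was higher with LPS+IFNg than with TGFb by 4.06 (SE 0.19, adjusted p = 1.05e-12) and higher with IL4 than with TGFb by 2.76. For Slc37a2 the difference of LPS+IFNg was -3.02 from IL4 (adjusted p = 2.18e-15) and -3.45 from TGFb (adjusted p = 2.62e-16). Slc6a9 was higher with LPS+IFNg than with IL4 by 2.27 and than with TGFb by 3.05. Slc39a12 was lower with LPS+IFNg than with IL4 (-3.55, adjusted p = 3.98e-09) and higher with IL4 than with TGFb (2.91, adjusted p = 1.73e-07). These tests bear on the difference itself, and for each of these members the libraries of the 2 stimuli did not overlap.

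Between IL4 and TGFb, Slc1a4 and Slc46a3 were higher with IL4 than with TGFb by 1.37 and 1.36, and Slc29a2 by 1.28. Slc46a1, Slc39a2, Slc25a37 and Slc36a1 were lower with IL4 than with TGFb, at -1.92, -1.42, -1.27 and -1.17.

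Other transport genes, listed apart from the Slc symbols, gave counts of their own. Of all tested genes, 29.5% were higher and 29.4% lower with LPS+IFNg. The all-gene shares were 9.89% and 7.33% with IL4, and 24.1% and 23.4% with TGFb. Of 25 measured ABC transporters, which pump substrates with ATP, 5 were higher and 16 lower with LPS+IFNg (median -0.26), 6 and 4 with IL4, and 10 and 7 with TGFb. Abcc5, an exporter of cyclic nucleotides, averaged 2925 with LPS+IFNg and 1074 untreated (log2 fold change 1.43). Abcc3, an exporter of bile acids and glucuronides, averaged 75.54 with LPS+IFNg, 139.1 with IL4, 543.5 with TGFb and 146.9 untreated, and Abca9 averaged 18.46 with LPS+IFNg, 228.7 with IL4, 83.95 with TGFb and 235.4 untreated. Of 24 measured carriers under other names and partner chains, 5 were higher and 13 lower with LPS+IFNg, 6 and 0 with IL4, and 10 and 3 with TGFb. Mfsd7a averaged 380.5 with LPS+IFNg, 37.96 with IL4, 56 with TGFb and 44.2 untreated, a log2 fold change of 3.09 with LPS+IFNg. Mfsd1, a lysosomal carrier, rose by 0.83 with LPS+IFNg and fell by 0.28 with TGFb, and Ostm1, the partner of a lysosomal chloride transporter, rose by 0.54 with IL4 and 0.60 with TGFb.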

How the data were processed

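The labels' protocols name TRIZOL for RNA extraction and the Illumina TruSeq RNA kit for the libraries. The submitters' processing notes name TopHat2 2.0.3, Partek 6.6, R 3.0.2, DESeq2 and mm10, with no role given. The deposited table holds a normalized signal, counts divided by 1 factor per library; values under 1 stand at 1. Genes with a value of 10 or more in at least 3 libraries were tested, 11138 of 11201. Log2(value + 1) was fitted by limma 3.58.1 (R 4.3.3) with a trended prior, all 15 libraries in 1 fit, and p-values were adjusted by Benjamini-Hochberg within each comparison; the script was tested on simulated data. Fold changes on this scale understate low genes. Reads were worked out from the steps between values, for depth and for comparing libraries; at least 96.5% of values above 1 per library came out whole within 0.01 reads, and values at 1 were taken as 0 reads, so totals are approximate. Substrate classes follow families, except for members given a class of their own by gene. Gene positions and exon lengths are from GENCODE vM21, promoters from RefSeq (GRCm38.p6). Members and lists were chosen with earlier results of these data known. Named members were the 8 highest and 8 lowest called per stimulus with a mean of 50 or more and no overlap, up to 2 per class and direction, 5 and 5 between stimuli, the 10 highest untreated and 6 with opposite directions; other transport genes were named up to 4 per list. Rescaling, quantile normalization, other pseudocounts and filters, and leaving out libraries were tried as alternatives. The values of 1 member are not reported here.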

Additional observations from a re-analysis of the deposited data

Results flagged for a closer look

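Among the untreated values of 80 named members, 5 held a library whose distance from the nearest other exceeded Dixon's 95% limit for 6 samples. Chance alone flags about 1 in 20 groups. Untreated replicate 4, the library with the fewest reads, was the highest for Slc25a12 at 849 (others 717.4 to 766.7), Slc30a5 at 2071 (others 1746 to 1822) and Slc7a8 at 854.6 (others 692.7 to 752.3). It was the lowest for Slc9a5 at 75.65 (others 113.2 to 130.2). Untreated replicate 1 was the highest for Slc46a1 at 82.99 (others 40.84 to 51.78).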

How the results depend on the processing

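Of 228 results on named genes, 196 kept their direction and their side of the threshold under every alternative that gave a value, of 23 run, and 32 lost the call under at least 1. Of those 32, the changes of Trib3 with TGFb and of Slc7a1 with LPS+IFNg are described above. That of Slc7a1 also turned, to -0.04, after quantile normalization. Calls lost under the most alternatives were those of Slc35f6 (14) and Mt2 (14) with TGFb, and Abcc5 (12) and Slc35f6 (11) with IL4. Slc39a4, Slc22a18 and Slc13a3 gave no value with a minimum of 50, and Slc13a3 none after quantile normalization or without TGFb replicate 1 or 3 or untreated replicate 3, because they fell below the filter. The count of members lower with IL4 was 27 after rescaling to the same total and 10 and 9 without IL4 replicates 1 and 2, against 16. With 1 library left out, the counts of higher and lower members were 49 to 54 and 64 to 72 for LPS+IFNg, 25 to 39 and 9 to 24 for IL4, and 46 to 63 and 39 to 51 for TGFb. Between stimuli they were 39 to 47 and 65 to 73 for LPS+IFNg against IL4, 44 to 49 and 63 to 78 for LPS+IFNg against TGFb, and 37 to 58 and 36 to 45 for IL4 against TGFb. The causes were not tested. The count models of edgeR and DESeq2 listed as alternatives were not run, since whole reads could not be recovered in every column. No paired analysis was possible because the labels give the groups no shared replicate numbers.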
